A study of Homo sapiens with 2 samples.

Results

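The messenger RNAs of 10 cytosolic and mitochondrial heat shock proteins were followed across single SH-SY5Y cells, a neuroblastoma line established as a subclone of SK-N-SH. The 10 genes (HSP90AA1, HSP90AB1, HSPA8, HSPA1A, HSPA1B, HSPH1, DNAJA1, DNAJB1, HSPD1 and HSPE1) were taken out of the 33538 gene rows of the table, and all 10 were found there. They were compared between cells with under 15%, 15 to 30% and over 30% of their unique molecular identifiers (UMIs, which count captured RNA molecules) on the 13 messenger RNAs that mitochondrial DNA encodes. Untreated cells were divided over 2 flasks, SplitA and SplitB, each marked with its own hashtag antibody, then pooled and captured as 1 droplet library. No treatment, knockout or transgene separated the flasks, which are the only replicates, and they share the parent culture and the library.

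Out of 2879 cells, 2784 carried 1 dominant hashtag and were used, 1179 from SplitA and 1605 from SplitB. The remaining 95 were multiplets by their hashtags. Doublets formed within a flask carry 1 hashtag and were not removed. No barcode was repeated. SplitA held 847, 139 and 193 cells from the lowest to the highest mitochondrial class, and SplitB held 1130, 128 and 347.

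Heat shock proteins are chaperones that hold or refold unfolded proteins. Under proteotoxic stress the transcription factor HSF1 binds heat shock elements, which are inverted repeats of GAA and TTC units, and turns on the inducible members, while the constitutive members are transcribed in unstressed cells as well. Neuroblastoma cells in culture, like other dividing tumour cells, hold much HSP90 and HSC70 without any heat shock.

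The promoters were examined only for exact matches to such elements, so the absence of a match is not the absence of an element. They were read from RefSeq on GRCh38.p14, 250 bases up to each annotated start, and searched on both strands for a motif of 3 units (GAANNTTCNNGAA or TTCNNGAANNTTC) and for a motif of 2 units (GAANNTTC or TTCNNGAA). Every match of 3 units also contains matches of 2 units. The motif of 3 units was present in 0.441% of 35116 promoter windows and that of 2 units in 11.6%. HSP90AA1, HSP90AB1, HSPA8 and HSPD1 each had a window with at least 1 match of 3 units. HSPA1A, HSPA1B, DNAJB1 and DNAJA1 had only matches of 2 units before the start, and the windows of HSPH1 and HSPE1 had none. Stretches of 5 promoters are printed 5′ to 3′ on the strand of the gene, with the matched bases in capitals, because HSP90AA1, HSP90AB1, HSPA8 and HSPD1 were several-fold higher in cells with many mitochondrial UMIs and DNAJB1 was not. Among members with at least 500 UMIs, 3-unit matches before the start went with the highest log2 ratios of cells over 30% to under 15%. These means over 2 flasks were 2.89 (HSP90AA1), 2.80 (HSP90AB1), 2.58 (HSPD1) and 2.09 (HSPA8), against 2.05 (DNAJA1), 1.96 (HSPH1) and -1.17 (HSPE1). HSPA1A (3.86), HSPA1B (2.32) and DNAJB1 (-0.40), with matches of 2 units, had too few UMIs for this comparison. A relation between matches and levels was not tested. HSPH1, without a match before the start, was 3.78-fold and 3.98-fold higher over 30% in SplitA and SplitB. DNAJA1, with a match of 2 units before the start, was 4.07-fold and 4.24-fold higher, and HSPA8 3.88-fold and 4.66-fold. DNAJA1 also had 1 match of 3 units that reached past its start, beyond the 250 bases.
HSP90AA1, chr14:102087100-102087152, minus strand: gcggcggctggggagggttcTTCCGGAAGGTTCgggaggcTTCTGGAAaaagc
HSP90AB1, chr6:44247758-44247863, plus strand: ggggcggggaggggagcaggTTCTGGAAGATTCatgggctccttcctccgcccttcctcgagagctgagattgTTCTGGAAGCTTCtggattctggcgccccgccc
HSPA8, chr11:123062159-123062211, minus strand: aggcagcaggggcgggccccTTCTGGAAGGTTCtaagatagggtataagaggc
HSPD1, chr2:197500048-197500090, minus strand: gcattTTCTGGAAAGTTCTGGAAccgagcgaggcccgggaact
DNAJB1, chr19:14518417-14518494, minus strand: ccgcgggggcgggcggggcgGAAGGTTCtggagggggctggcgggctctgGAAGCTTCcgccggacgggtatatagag
A match is a match of letters, and binding was not measured here. HSPA1A and HSPA1B, which lie near each other on chromosome 6, are shown for their 1 match of 2 units each.
HSPA1A, chr6:31815417-31815464, plus strand: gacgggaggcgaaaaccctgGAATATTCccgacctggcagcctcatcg
HSPA1B, chr6:31827613-31827660, plus strand: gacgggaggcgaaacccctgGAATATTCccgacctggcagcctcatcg

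Cells of the 3 classes differed in more than these genes. The median UMI count per cell was 6244, 1853 and 1511 in SplitA from the lowest to the highest class, and 6505, 2054 and 1468 in SplitB. Ribosomal protein genes took 41.3%, 17.7% and 14.2% of the UMIs outside the mitochondrial genes in SplitA, and 41.2%, 21.3% and 14.1% in SplitB. MALAT1, a nuclear long noncoding RNA, stood at 15074, 36244 and 45575 UMIs per 1000000 UMIs outside the mitochondrial genes (CPM) in SplitA and 14625, 33322 and 46855 in SplitB. The cells carried the identity of their line: PHOX2A, a noradrenergic transcription factor, was detected in 85.5% of them, although TH, which makes the catecholamine precursor, gave 23 UMIs in all. Of 6 leukocyte and blood genes, CD14 gave 6 UMIs and the others, PTPRC among them, 0. Of 6 epithelial genes, KRT5, KRT8 and CDH1 were at 0, KRT18 gave 2 UMIs, EPCAM 31 and KRT19 183, the last in 5.32% of cells. Of 7 fibroblast genes, COL1A2 was at 0 and DCN gave 1 UMI, while PDGFRA gave 226 and PDGFRB 218, each in 7.26% of cells. Most cells over 30% had fewer detected genes than the study's own minimum. The part that depth, ribosomal share and nuclear RNA had in the values below was not tested. Without ribosomal protein genes in the divisor, the mean log2 ratio of HSP90AA1 over 30% to under 15% was 2.35 instead of 2.89. That of HSPE1 was -1.72 instead of -1.17. Values among cells of like depth are given with the alternatives further below.

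Levels are given in CPM, the UMIs of a gene per 1000000 UMIs outside the 13 mitochondrial genes, with exact Poisson 95% intervals that cover counting error only. Since UMIs count molecules by their 3′ ends, levels of different genes were not divided by transcript length. The genes and the classes were chosen by levels measured in these same cells, so the comparison is a description and carries no p-value.

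The cytosolic HSP90 pair was the most abundant and moved together. HSP90AA1 encodes HSP90α, the inducible isoform of the chaperone that matures kinases and steroid receptors. In SplitA its level was 672 (650 to 695) in cells under 15%, 5071 (4777 to 5379) in cells of 15 to 30% and 5320 (4998 to 5658) in cells over 30%. In SplitB it was 690 (671 to 710), 3965 (3719 to 4223) and 4815 (4583 to 5057). The intervals of the lowest class did not overlap those of the other classes in either flask. Cells over 30% were therefore 7.92-fold (7.37 to 8.49) above cells under 15% in SplitA and 6.98-fold (6.59 to 7.38) in SplitB.

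HSP90AB1 encodes HSP90β, the constitutive isoform. It stood at 523, 3530 and 4018 CPM in SplitA and at 538, 2784 and 3379 in SplitB. The constitutive isoform was thus 7.68-fold (7.08 to 8.33) and 6.28-fold (5.87 to 6.71) higher over 30%, nearly as much as the inducible one. The ratio of HSP90AA1 to HSP90AB1 UMIs was 1.29 (1.22 to 1.35), 1.44 (1.31 to 1.58) and 1.32 (1.20 to 1.46) in SplitA, and 1.28 (1.23 to 1.34), 1.42 (1.29 to 1.57) and 1.43 (1.32 to 1.54) in SplitB. From the lowest to the highest class this ratio changed by a mean log2 of 0.10 ± 0.08 (SD, n = 2 flasks).

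**Figure D1:**
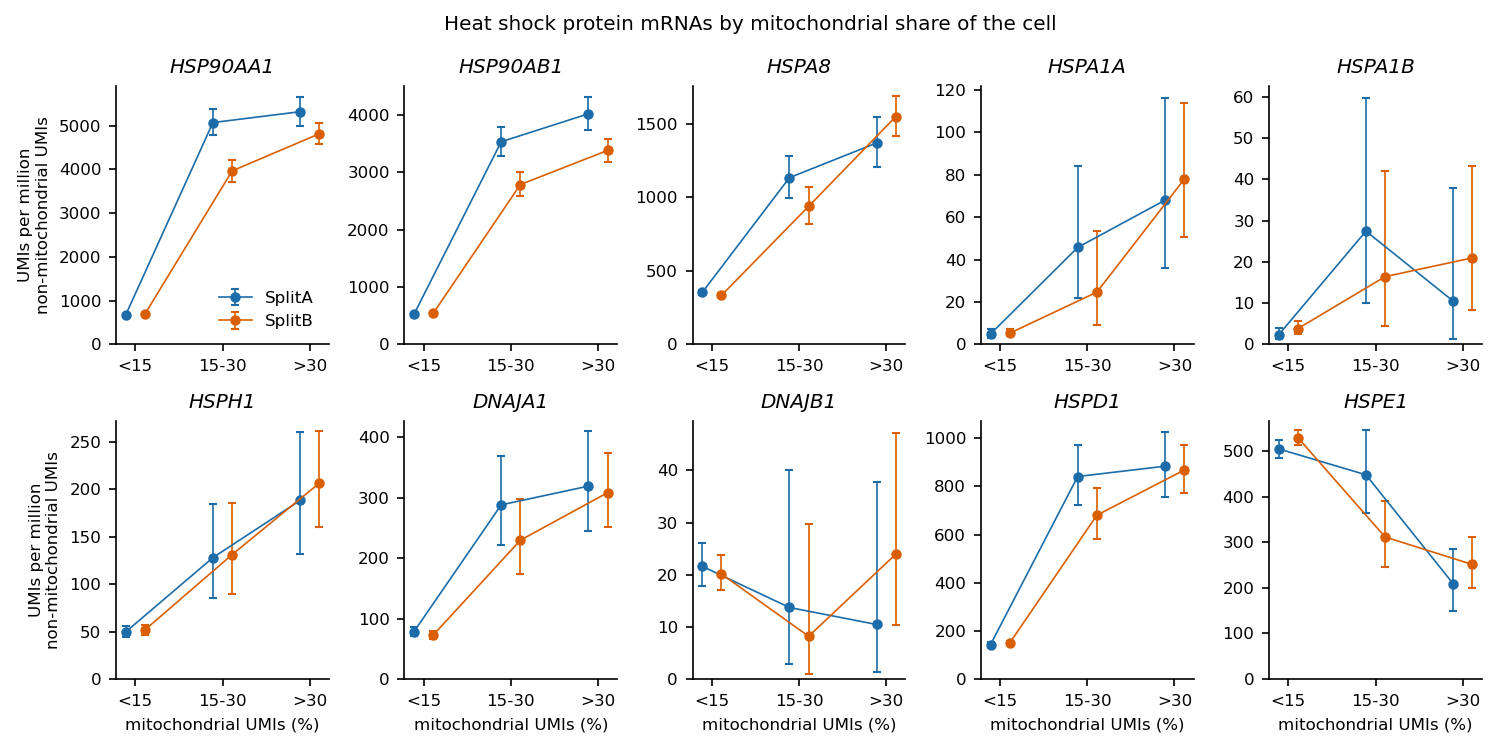
Level of each heat shock protein mRNA (CPM, linear axis from 0) in cells with under 15%, 15 to 30% and over 30% mitochondrial UMIs; points are flask sums and bars are exact Poisson 95% intervals. HSP90AA1 goes from 672 to 5320 in SplitA, HSPE1 goes the other way, from 505 to 209, and DNAJB1 stays between 8.20 and 23.9 in both flasks.

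Per cell the picture had another scale, because cells of the higher classes held fewer UMIs. HSP90AA1 gave 4.11, 7.98 and 5.27 UMIs per cell in SplitA and 4.34, 7.55 and 4.64 in SplitB. A cell over 30% thus held 1.28-fold (SplitA) and 1.07-fold (SplitB) the HSP90AA1 UMIs of a cell under 15% at a far lower total, and a cell of 15 to 30% held 1.94-fold and 1.74-fold. HSP90AB1 gave 3.20, 5.55 and 3.98 UMIs per cell in SplitA and 3.38, 5.30 and 3.25 in SplitB. When every cell was thinned to 500 UMIs, mitochondrial ones included, HSP90AA1 was detected in 23.3%, 81.3% and 73.6% of SplitA cells and in 25.8%, 78.1% and 70.6% of SplitB cells. Without thinning the shares were 91.4%, 96.4% and 92.2% in SplitA and 93.3%, 96.9% and 91.1% in SplitB. No cell type known to lack these genes was in the culture, so the background from free RNA could not be set beside these shares.

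Of the HSP70 family, HSPA8 encodes HSC70, the constitutive housekeeping chaperone. Its level was 353 (337 to 369), 1134 (997 to 1284) and 1371 (1210 to 1547) CPM in SplitA, and 333 (319 to 346), 939 (821 to 1069) and 1550 (1420 to 1690) in SplitB. Cells over 30% were 3.88-fold and 4.66-fold higher, a smaller difference than that of the HSP90 pair in the same flasks. Per cell its UMIs were fewer, 2.16 under 15% against 1.36 over 30% in SplitA and 2.09 against 1.49 in SplitB.

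HSPA1A and HSPA1B encode the inducible HSP70 and were close to the detection limit. HSPA1A gave 25, 10 and 13 UMIs in the 3 classes of SplitA and 37, 6 and 26 in SplitB. These correspond to 4.82, 45.7 and 68.0 CPM in SplitA and to 5.21, 24.6 and 77.8 in SplitB. Its fold over 30% was 14.1 (6.63 to 28.6) and 14.9 (8.68 to 25.3), intervals that exclude 1 in both flasks but rest on few molecules. HSPA1B gave 12, 6 and 2 UMIs in SplitA and 27, 4 and 7 in SplitB, and its fold over 30% had an interval of 0.49 to 20.3 in SplitA. The transcripts are near copies: 73.0% of the 90-base words of the HSPA1A transcript also occur in HSPA1B, and 14.6% of those in its last 500 bases. The division of UMIs between them is therefore uncertain. Together they amounted to 0.020 (0.014 to 0.028) of the HSPA8 UMIs under 15% and 0.057 (0.032 to 0.096) over 30% in SplitA, and to 0.027 (0.021 to 0.035) and 0.064 (0.043 to 0.091) in SplitB. In every class HSC70 transcripts outnumbered those of inducible HSP70 by at least 15.5-fold.

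HSPH1 encodes HSP110, an inducible nucleotide exchange factor for HSP70. It stood at 49.8, 128 and 188 CPM in SplitA and at 51.8, 131 and 207 in SplitB, which was 3.78-fold (2.59 to 5.38) and 3.98-fold (3.03 to 5.16) higher over 30%. Per cell its UMIs were fewer, 0.30 under 15% against 0.19 over 30% in SplitA and 0.33 against 0.20 in SplitB. Its ratio to HSPA8 stayed between 0.113 and 0.156 over all classes and flasks, with overlapping intervals.

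The J-domain proteins, which hand clients to HSP70 and stimulate its ATPase, differed from each other. DNAJA1, a constitutive member, stood at 78.5, 288 and 319 CPM in SplitA and at 72.7, 230 and 308 in SplitB, and was 4.07-fold (3.05 to 5.33) and 4.24-fold (3.40 to 5.25) higher over 30%. Per cell its UMIs were fewer, 0.48 under 15% against 0.32 over 30% in SplitA and 0.46 against 0.30 in SplitB. DNAJB1, the inducible HSP40, gave 112, 3 and 2 UMIs in SplitA and 143, 2 and 8 in SplitB. These are 21.6 (17.8 to 26.0), 13.7 (2.83 to 40.1) and 10.5 (1.27 to 37.8) CPM in SplitA, and 20.1 (17.0 to 23.7), 8.20 (0.99 to 29.6) and 23.9 (10.3 to 47.2) in SplitB. A change of DNAJB1 was not detectable at this depth, and its upper bound over 30% was 1.79-fold in SplitA and 2.41-fold in SplitB, below the lower bound of DNAJA1 in the same flask. The ratio of DNAJB1 to DNAJA1 was 0.275 (0.221 to 0.340) under 15% and 0.033 (0.004 to 0.124) over 30% in SplitA, and 0.277 (0.229 to 0.334) and 0.078 (0.033 to 0.159) in SplitB.

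The 2 mitochondrial chaperonin genes parted in direction. HSPD1 encodes HSP60, the barrel that folds imported proteins in the mitochondrial matrix, and HSPE1 encodes HSP10, its lid. HSPD1 stood at 143 (133 to 154), 841 (724 to 972) and 884 (756 to 1028) CPM in SplitA, and at 150 (141 to 159), 681 (581 to 793) and 868 (771 to 974) in SplitB. HSPE1 stood at 505 (486 to 525), 448 (364 to 546) and 209 (149 to 285) in SplitA, and at 529 (513 to 547), 312 (246 to 390) and 251 (201 to 311) in SplitB. HSPD1 was 6.19-fold and 5.80-fold (5.07 to 6.60 in the latter) higher over 30%, whereas HSPE1 was at 0.41-fold (0.30 to 0.57) and 0.47-fold (0.38 to 0.59).

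The ratio of HSPD1 to HSPE1 UMIs was 0.283 in the lowest class of each flask. It was 1.88 (1.46 to 2.42) and 4.23 (2.98 to 6.12) in the next classes of SplitA, and 2.18 (1.66 to 2.90) and 3.45 (2.699 to 4.46) in those of SplitB. Cells over 30% differed from cells under 15% by 13.5-fold in this ratio, a mean log2 of 3.75 ± 0.21 (SD, n = 2 flasks), the widest of the 5 pairs plotted. Per cell, HSPE1 gave 3.09 UMIs under 15% and 0.21 over 30% in SplitA, and 3.33 and 0.24 in SplitB, while HSPD1 gave 0.87 and 0.88 in SplitA and 0.94 and 0.84 in SplitB. The genes lie head to head on chromosome 2, with HSPE1 on the plus strand from 197500379 and the RefSeq starts of HSPD1 on the minus strand at 197500274 and 197499840, which leaves 104 or 538 bases between them. The HSPD1 stretch printed above lies between the more distant pair of starts and outside the window searched for HSPE1. The readthrough gene HSPE1-MOB4 had 0 UMIs. The annotation names 26 pseudogenes after HSPE1 and 18 after HSPD1, so reads shared with these copies make both levels uncertain. The same limit holds for HSPA8 with 17, HSP90AB1 and DNAJA1 with 6 each, HSP90AA1 with 5 and DNAJB1 with 2.

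**Figure D2:**
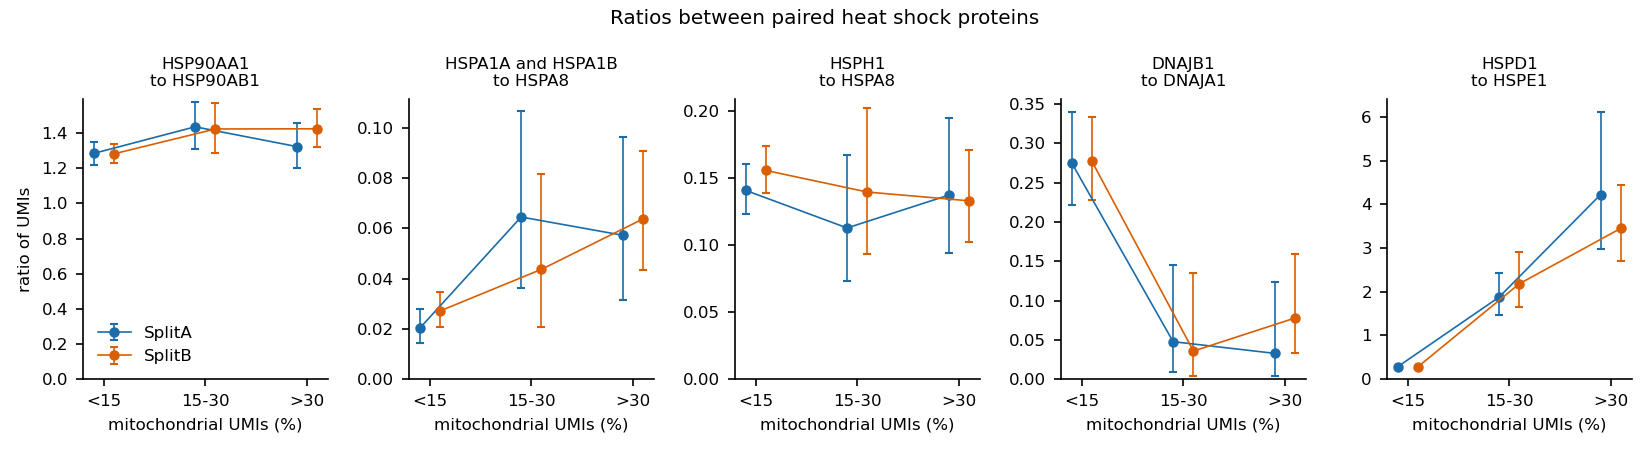
Ratio of UMIs between paired heat shock proteins (vertical axes from 0) in the 3 mitochondrial classes; points are flask sums and bars are 95% intervals from counting error. HSP90AA1 to HSP90AB1 lies between 1.28 and 1.44 throughout, DNAJB1 to DNAJA1 drops from 0.275 to 0.033 in SplitA, and HSPD1 to HSPE1 climbs from 0.283 to 4.23 in SplitA and to 3.45 in SplitB.

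Over all members, 7 of 10 had at least 500 UMIs in the singlets, which excluded HSPA1A, HSPA1B and DNAJB1. Of those 7, 6 were at least 1.5-fold higher in both flasks at 15 to 30% and 0 were lower, where 33.2% of the 3071 genes with as many UMIs were higher and 11.6% lower (44.8% in either direction). Over 30% the same count was 6 higher and 1 lower, HSPE1, where 37.3% of all such genes were higher and 21.2% lower (58.5% in either direction). The members were chosen by their levels in these same classes of cells, so nothing is read from these shares. The median gene shifted by a log2 of 0.31 at 15 to 30% and 0.30 over 30%. The members' mean log2 values over 30% ran from 1.96 (HSPH1) to 2.89 (HSP90AA1) for the 6 higher ones, and HSP90AA1 ranked 42 among the 3071 genes in order of that value.

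Sorting the members into inducible (HSP90AA1, HSPA1A, HSPA1B, HSPH1 and DNAJB1) and constitutive (HSP90AB1, HSPA8 and DNAJA1) did not separate those that differed from those that did not. The summed inducible to constitutive ratio was 0.786 (0.754 to 0.820), 1.07 (0.98 to 1.16) and 0.981 (0.901 to 1.07) in SplitA, and 0.818 (0.789 to 0.847), 1.05 (0.96 to 1.15) and 0.982 (0.919 to 1.05) in SplitB. Its mean log2 change was 0.40 ± 0.06 at 15 to 30% and 0.29 ± 0.04 over 30% (SD, n = 2 flasks). HSP90AA1 supplied most of the inducible UMIs and decided the direction. Without it the ratio was 0.082, 0.043 and 0.049 in SplitA and 0.086, 0.046 and 0.063 in SplitB, a mean log2 change of -0.92 and -0.60.

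In narrower classes the levels changed over a short range and then levelled off. Just below the 15% limit, in cells of 10 to 15%, HSP90AA1 stood at 756 and 723 CPM in SplitA and SplitB. Just above it, at 15 to 20%, it stood at 3315 (18 cells) and 2744 (28 cells). Around the 30% limit it hardly differed, 5531 and 5066 at 25 to 30% against 5620 and 4980 at 30 to 35%. Above 50% it was 3923 (2539 to 5792) in SplitA, on 25 UMIs in 15 cells, an interval that overlaps that of 30 to 35%. In SplitB it was lower again above 50%, at 2806 (2069 to 3721) in 42 cells. HSP90AB1 and HSPD1 had a like course in both flasks, with HSPD1 at 141 and 152 at 10 to 15% and at 995 and 758 at 20 to 25%. HSPE1 differed between the flasks at 15 to 20%. In SplitA it was 496 (454 to 541) at 10 to 15%, 729 (525 to 985) at 15 to 20% and 207 at 30 to 35%. In SplitB it was 477 (441 to 515) at 10 to 15%, 351 (243 to 490) at 15 to 20% and 208 at 25 to 30%. Ribosomal share and depth changed over the same range, from 40.5% and 41.3% of UMIs at 10 to 15% to 23.1% and 28.8% at 15 to 20%, with a median of 6630 and 6904 UMIs per cell against 3680 and 3517.

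**Figure D3:**
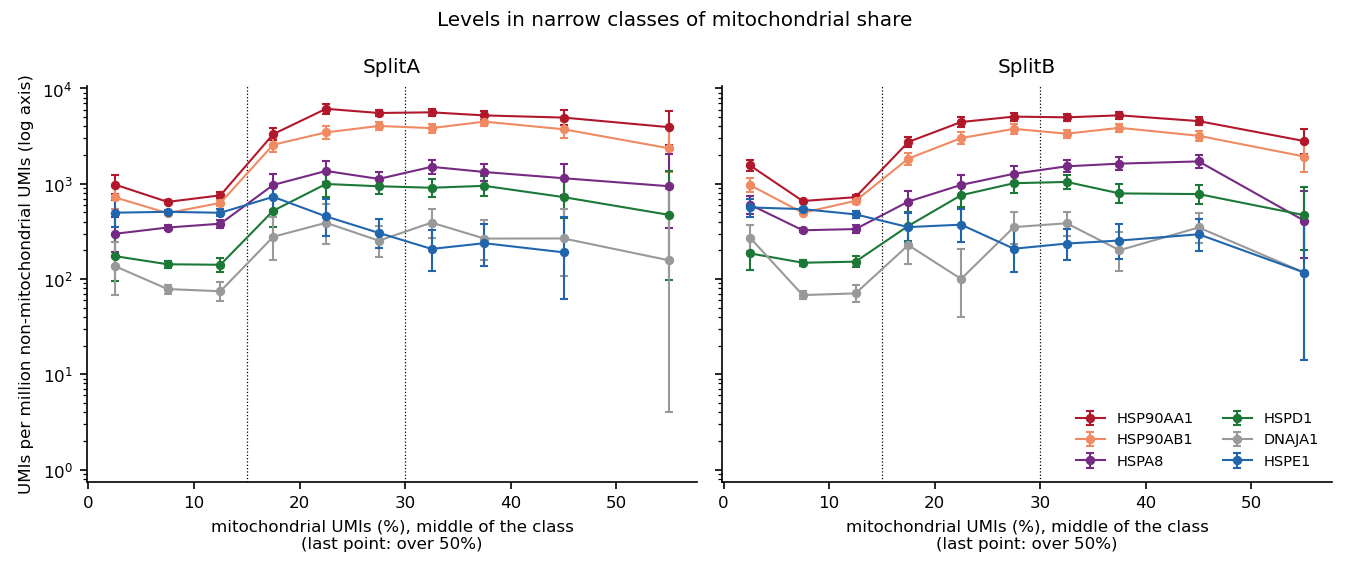
Levels of 6 members (CPM, log axis) against the mitochondrial share of the cell in narrow classes, by flask; bars are exact Poisson 95% intervals, dotted lines mark 15% and 30%, the last class holds all cells over 50%, and a class with 0 UMIs is left out. The HSP90, HSPA8 and HSPD1 lines step up between the classes of 10 to 15% and 20 to 25%. The HSPE1 line is lower at 30 to 35% than at 10 to 15% in both flasks. In SplitA it is at 729 at 15 to 20%, on 42 UMIs in 18 cells, with an interval that overlaps that of 10 to 15%.

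Transcript length went along with these differences across all genes. The canonical transcript of HSPE1 has 557 bases and those of the other members 2242 to 5244. Genes under 1000 bases had a median log2 of -0.74 over 30%, and 50.1% of them were at least 1.5-fold lower in both flasks. The median was 0.16 for genes of 1000 to 2000 bases, 0.38 for 2000 to 4000 and 0.82 for 4000 and longer. Over 3068 genes, which share the same cells, Spearman's rho between length and log2 value was 0.365. HSPE1, at -1.17, lay near the median of the shortest class, whereas HSP90AA1 (2.89), HSP90AB1 (2.80) and HSPD1 (2.58) lay well above the 0.38 of theirs and HSPH1 (1.96) above the 0.82 of the longest. The part of length in the split between HSPD1 and HSPE1 was not tested.

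**Figure D4:**
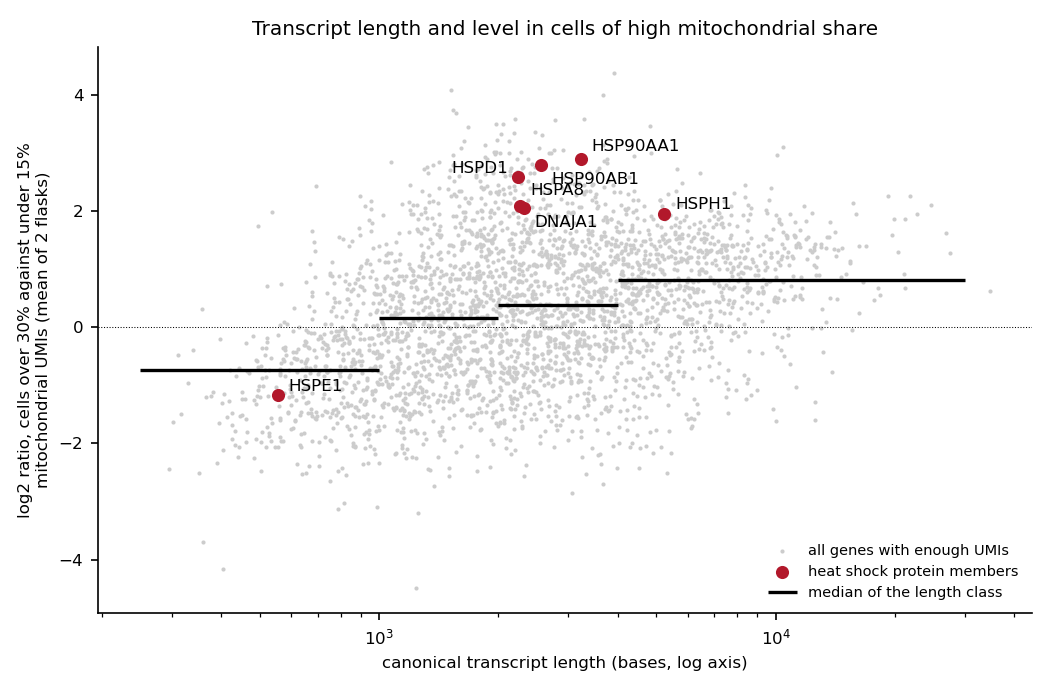
Mean log2 ratio over the 2 flasks (cells over 30% against under 15% mitochondrial UMIs) against canonical transcript length in bases (log axis) for the genes with enough UMIs; red points are heat shock protein members and black bars the median of each length class. HSPE1 sits at 557 bases and -1.17, near its class median of -0.74, and the other 6 members lie between 1.96 and 2.89, above theirs.

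Related chaperone genes also differed among themselves. All 8 subunits of the cytosolic chaperonin TRiC, which folds actin and tubulin, were at least 1.5-fold higher in both flasks in both classes, with mean log2 values over 30% from 1.87 (TCP1) to 3.59 (CCT5). Of the 6 prefoldin subunits, which deliver chains to TRiC, 0 were higher over 30% and 2 were lower, PFDN5 (-1.07, 596 bases) and PFDN4 (-0.83). The median of these 14 genes was 2.04, where that of all 3071 tested genes was 0.30. Among 12 cochaperones of HSP90 and HSP70 with enough UMIs, 7 were higher and 0 lower over 30%, with a median of 1.29: the HSP70 to HSP90 adaptor STIP1 had a mean log2 of 2.62 and the HSP90 ATPase activator AHSA1 one of 2.15, against -0.06 for the HSP90 cochaperone PTGES3 and -0.42 for the ubiquitin ligase STUB1. Of 5 other J-domain proteins, 3 were higher in each class, DNAJC7 (1.38 over 30%), DNAJC2 (1.32) and DNAJC8 (1.11). The median of those 5 was 1.11. The 7 other genes of the HSP70 and HSP110 family had too few UMIs to be counted. For comparison, 37.3% of all tested genes were higher over 30% and 21.2% lower. This balance turned with the scaling, to 22.3% higher and 36.0% lower by the total of all UMIs, 22.9% and 35.4% by the total without ribosomal protein genes, and 16.1% and 42.4% by TMM factors.

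In the mitochondrial matrix, the HSP70 gene HSPA9 had a mean log2 of 2.95 over 30% and the HSP90 homologue TRAP1 one of 2.89, both close to HSPD1 at 2.58, while DNAJC19, an inner membrane J-domain protein, was lower at -1.79. In all, 3 of 7 mitochondrial chaperones and proteases were higher and 1 was lower, with a median of 0.51, near the 37.3% higher and 21.2% lower of all tested genes. Other inducible HSF1 targets were higher in 6 of 7 cases (median 2.12), including UBB (1.17), which encodes ubiquitin. HSPB1, the small heat shock protein HSP27 with a transcript of 777 bases, was at -0.07. HSF1 itself was at 0.80, and its binding protein HSBP1 at -1.16. The immediate early genes JUN and JUNB had 0.84 and 0.93, and 2 of 4 in that list were higher (median 0.71). Outside the chaperones, 18 of 21 S phase genes were higher and 0 lower (median 1.84). In the G2M list 12 of 26 were higher and 2 lower (median 0.59), and 4 of 10 noradrenergic markers were higher and 0 lower (median 0.59), among them CHGA at 3.23 and CHGB at 2.66, shares of higher genes near the 37.3% of all tested genes.

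Differences between members were also present among the cells under 15%. The cells with at least 2000 UMIs outside the mitochondrial genes were ordered by their HSP90AA1 level, and the top 10%, 83 cells in SplitA and 109 in SplitB, were compared with the other 753 and 986. HSP90AA1 itself was 3.67-fold and 3.68-fold higher by this choice. HSP90AB1 was 1.67-fold higher in SplitA and 1.57-fold (1.43 to 1.73) in SplitB, DNAJA1 2.01-fold and 2.09-fold, HSPD1 2.05-fold and 1.80-fold, and HSPA8 1.37-fold and 1.68-fold. Of the inducible members, HSPA1B was 4.96-fold (1.09 to 18.5) and 6.06-fold (2.48 to 14.0) higher, on 4 and 10 UMIs in the chosen cells. HSPA1A was 2.48-fold (0.73 to 6.81) and 5.58-fold (2.61 to 11.4), on 5 and 13 UMIs. HSPH1 was 1.27-fold (0.83 to 1.87) and 1.41-fold (1.01 to 1.94). Among cells of both sets with UMI totals between the quartiles of the chosen cells, the SplitA folds were smaller, 1.24 for HSP90AB1, 1.55 for DNAJA1, 1.71 for HSPD1 and 1.08 for HSPA8, and the SplitB folds were 1.53, 2.06, 1.70 and 1.78. The chosen cells of this range held 0 UMIs of HSPA1A and 0 of HSPA1B in SplitA, and 9 and 5 in SplitB. HSPE1 was also higher here, 1.37-fold (1.21 to 1.54) and 1.23-fold (1.11 to 1.37), unlike in cells with many mitochondrial UMIs. The median mitochondrial share was 8.14% in the chosen cells and 8.49% in the others of SplitA, and 7.91% and 8.65% in SplitB. The ribosomal share was 36.1% against 41.8% and 35.8% against 41.8%, and TUBA1A, an α-tubulin gene, was 2.15-fold and 2.17-fold higher. The summed G2M genes were 1.34-fold and 1.605-fold higher and the S phase genes 1.455-fold and 1.25-fold. The part of these shares in the result was not tested.

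DNAJB1 divided the flasks in this comparison. It was 0.87-fold (0.39 to 1.71) in SplitA and 5.77-fold (4.02 to 8.22) in SplitB, where 51 UMIs were in the chosen cells. A single SplitB cell held 24 of them, and without it the fold was 3.10 (1.94 to 4.81). That cell had 8949 UMIs, 3.24% mitochondrial, with 15 HSP90AA1, 10 HSPB1, 2 HSPA1A, 3 HSPA1B and 1 HSPA6 UMIs, HSPA6 being the strictly inducible HSP70. Among all 2784 singlets, 6 cells had at least 3 DNAJB1 UMIs, 2 from SplitA and 4 from SplitB, all with between 1.94% and 6.80% mitochondrial UMIs. These cells were picked by raw count, which the shallower cells with many mitochondrial UMIs could hardly reach. Nothing is therefore read from their absence there. In SplitB 1 cell over 30% held 2 DNAJB1 UMIs, and an order by CPM can differ.

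**Figure D5:**
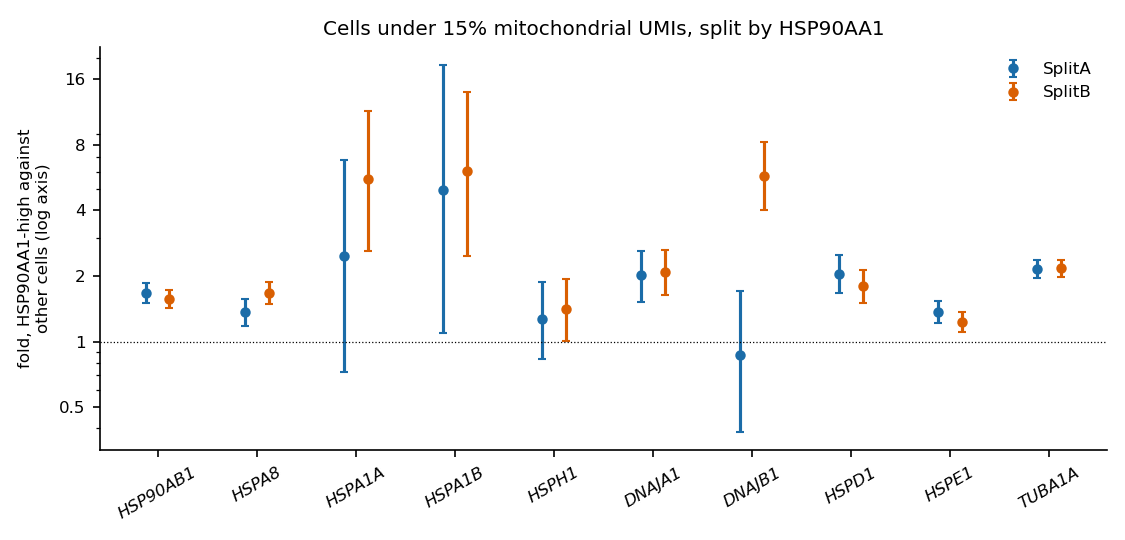
Fold between the cells highest in HSP90AA1 (83 in SplitA, 109 in SplitB) and the other cells under 15% mitochondrial UMIs (log axis), for the other members and TUBA1A; bars are exact 95% intervals from counting error and the dotted line marks 1. HSP90AB1, HSPA8, HSPA1B, DNAJA1, HSPD1, HSPE1 and TUBA1A have intervals above 1 in both flasks, HSPA1B on 4 and 10 UMIs in the chosen cells. The intervals of HSPA1A and HSPH1 lie above 1 in SplitB only. DNAJB1 is at 0.87 in SplitA and 5.77 in SplitB, where 1 cell holds 24 of the 51 UMIs.

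Cells of low mitochondrial but also low ribosomal share had high levels as well. Under 15% mitochondrial UMIs, 11 SplitA cells and 28 SplitB cells had under 25% of their other UMIs on ribosomal protein genes, at a median of 4401 and 1068 UMIs per cell. HSP90AA1 stood at 4272 (3695 to 4914) and 4265 (3780 to 4794) in them, against 669 and 672 in cells with a ribosomal share of 35 to 45%. HSPD1 stood at 589 and 564 against 151 and 144. HSPE1 was higher in these few cells too, at 937 (678 to 1262) and 822 (618 to 1073) against 519 and 535. The choice of cells itself raises these levels, since ribosomal UMIs are part of the divisor. With ribosomal protein genes also left out of the divisor, HSPE1 stood at 1206 and 1036 against 868 and 893. On that scale HSP90AA1 stood at 5495 and 5372 against 1117 and 1122, and HSPD1 at 757 and 710 against 252 and 241. In CPM the direction of HSPE1 differed between cells of low ribosomal share with few and with many mitochondrial UMIs. That of the HSP90 pair and HSPD1 did not. The smaller HSPE1 difference without ribosomal UMIs has no interval and was not tested.

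Along the cell cycle, cells under 15% with at least 2000 UMIs outside the mitochondrial genes were used. The members were compared between the 25% of these cells with the highest and the 25% with the lowest summed level of S phase or G2M genes (209 cells each in SplitA, 273 in SplitB). HSP90AA1 was 1.79-fold (1.62 to 1.98) and 1.51-fold (1.38 to 1.64) higher in the cells rich in S phase genes, and 1.80-fold and 1.64-fold in those rich in G2M genes. HSPD1 was 1.43-fold and 1.28-fold higher and HSPE1 1.33-fold and 1.34-fold higher by S phase genes, so the chaperonin partners moved together here. HSPA8 was lower, at 0.82-fold (0.71 to 0.93) and 0.76-fold (0.67 to 0.86). Median UMIs by S phase genes were 6550 against 6017 in SplitA and 6545 against 6331 in SplitB. By G2M genes they were 7072 against 6074 in SplitA and 6957 against 6579 in SplitB.

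Correlations between members across cells under 15% were low in these sparse counts and describe cells that share 1 library and differ in depth. The 5402 genes detected in no fewer than 10% of these cells were ranked by the lower r of the 2 flasks, so the order within 1 flask can differ. By that rule HSP90AA1 was most like TUBA1B (Pearson's r 0.351 and 0.342 over 847 and 1130 cells), ACTB, HNRNPA2B1, TUBA1A and HMGB1. The genes most like HSPD1 began with HSP90AA1 (0.188 and 0.141) and TUBA1B, followed by IK, XRCC5 and RAN. HSPH1 was most like HSP90B1 (0.107 and 0.133), then DDX21, H2AZ1, HSP90AA1 and HNRNPU. HSPA8 was most like HSP90AB1 (0.142 and 0.144), followed by RPL10, RACK1, STMN2 and GAPDH.

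Members also differed in how unevenly their UMIs fell over cells. Under 15%, the variance of HSP90AA1 was 3.86 times that of Poisson counting at each cell's depth in SplitA and 3.77 times in SplitB, against 1.49 and 1.46 for HSPE1 and 1.16 and 1.04 for HSPH1. For DNAJB1 it was 1.53 in SplitA and 5.45 in SplitB, the flask with the cell of 24 UMIs. The Poisson intervals given above are therefore too narrow for spread between cells, in particular for HSP90AA1 in both flasks and DNAJB1 in SplitB.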

How the data were processed

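The authors pooled the hashtagged flasks, sequenced 1 single-cell 3′ library and deposited 1 table of UMI counts for 2879 cells, made with Cell Ranger 4.0.0 and STAR 2.7 on GRCh38 according to the submitters' processing notes. Values are raw counts with no normalization. Cells were assigned to a flask by the study's own rule (1 hashtag at least 3 times the other, and the other at no more than 185 counts). The study's further filters on UMIs, detected genes and mitochondrial share were not applied, so cells that it dropped are among those used. Over 30%, the median count of UMIs outside the mitochondrial genes was 946 in SplitA and 894 in SplitB. These medians are below the study's minimum of detected genes, so most cells of that class would have been dropped by it. For the paper, a high mitochondrial share points to cells that are apoptotic, stressed or of low quality. Gene identifiers were matched to GENCODE release 44 symbols.

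UMIs were summed by flask and mitochondrial class and divided by the UMIs outside the 13 mitochondrial genes. Intervals are exact at 95% and cover counting error only. Calls required a 1.5-fold difference in both flasks among genes with at least 500 UMIs. On simulated Poisson counts they recovered most genes given the largest known fold, which lay above the 1.5-fold limit. Those counts held no spread between cells and no shift in ribosomal share, so the calls were not tested under such conditions. No p-value was computed. The members and gene lists were chosen with earlier results of these data known. Named were all members, the most abundant and most changed genes of each list, and the 5 genes most correlated with HSP90AA1, HSPH1, HSPD1 and HSPA8 by the lower r of the 2 flasks. TCP1, PFDN4, HSPA6 and the DNAJB1-rich cells were singled out after their values were seen. The value of a further list gene is not reported here. Alternatives numbered 16 set and 2 chosen after seeing the data, among them TMM scaling by edgeR 4.0.16 (R 4.3.3). Python 3.11.15, numpy 2.4.6, scipy 1.17.1 and pandas 2.3.3 were used.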

Additional observations from a re-analysis of the deposited data

Results flagged for a closer look

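HSP90AB1 moved in opposite directions in the flasks between the 25% of cells richest and the 25% poorest in S phase genes, 1.12-fold (1.00 to 1.25) in SplitA and 0.88-fold (0.80 to 0.97) in SplitB. The intervals cover counting error only, and the difference between flasks was not tested.

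The 95 multiplets, which enter no comparison above, also carried a signal. HSP90AA1 stood at 705 CPM in the 68 multiplets under 15% and at 6261 (5094 to 7615) in the 16 over 30%. HSPE1 stood at 451 and at 376 (138 to 818), the latter on 6 UMIs.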

How the results depend on the processing

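The inducible to constitutive ratio depended on HSP90AA1. Without HSP90AA1 its mean log2 change was -0.92 instead of 0.40 at 15 to 30% and -0.60 instead of 0.29 over 30%. With class limits of 10% and 25% the middle class gave 0.059, and 1 member in place of 6 was at least 1.5-fold apart, as that class then holds cells of 10 to 15%. With the mitochondrial share taken from 9 genes the middle class gave 0.23, and the upper class, with 1 and 9 cells, could not be used. Among cells of 1000 to 2500 UMIs it was 0.75 at 15 to 30% and 0.64 over 30%, with flasks apart (1.62 and -0.13, then 1.43 and -0.16) on 8 and 24 cells under 15%. The mean of cell values gave 0.33 over 30%. Leaving out a flask gave 0.36 to 0.44 and 0.26 to 0.32, with 6 to 7 and 7 to 7 members apart. The other counts of members apart ranged from 5, with HSP90AA1 left out, to 9, with all 10 members counted and no filter on UMIs. The number of members that could be counted thus differed between alternatives. The share of all genes is given only for the scalings, so no count of members in this paragraph is read as a result. The scaling moved the median of all genes from 0.30 to -0.50 over 30% (TMM), where HSP90AA1 was still at 2.09, HSPE1 at -1.97 and DNAJB1 at -1.20. The share of all tested genes called higher over 30% went from 37.3% to between 16.1% and 22.9% under the 3 other scalings. The log2 value over 30% kept its sign in each alternative that gave a value (13 or 14 a member) for all members except DNAJB1, which did so in 11 of 13 and was 0.25 in SplitB alone. Its size changed among cells of 1000 to 2500 UMIs, with few cells under 15%. There HSP90AA1 was at 3.76 in SplitA and 1.10 in SplitB, HSP90AB1 at 2.19 and 1.34, and DNAJA1 at 1.30 and 0.11. HSPA8 was at 2.46 and 1.77, HSPD1 at 1.76 and 2.07, and HSPE1 at -1.40 and -1.35. HSPE1 at 15 to 30% ran from -1.33 to -0.11. No paired test was run, and the classes were already compared within each flask before averaging. Depth limited HSPA1A, HSPA1B and DNAJB1 to 2 to 26 UMIs in each class above 15% of each flask.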

Other observations

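Cells at the low end, under 5% mitochondrial UMIs (23 in SplitA, 41 in SplitB, median 2648 and 2447 UMIs), were compared with cells of 5 to 15%, a comparison chosen after its values were seen. HSP90AA1 was 1.47-fold (1.16 to 1.84) higher in SplitA and 2.32-fold (2.03 to 2.65) in SplitB, and HSP90AB1 1.39-fold and 1.83-fold. In SplitA 1 cell held 30 of the 79 HSP90AA1 UMIs, and without it the level was 701 CPM against 667 in cells of 5 to 15%; in SplitB 1 cell held 62 of 235, and without it the level was 1199 CPM against 671. HSPE1 was at 0.98-fold (0.70 to 1.34) and 1.07-fold (0.85 to 1.32). DNAJA1 was 1.76-fold (0.87 to 3.19) and 3.98-fold (2.82 to 5.48). DNAJB1 stood at 62.1 CPM in SplitA on 5 UMIs and at 232 CPM in SplitB on 35 UMIs, against 21.0 and 15.5 CPM. In each flask 1 cell held most of these UMIs, 4 of 5 and 24 of 35, and without it the levels were 14.1 and 77.5 CPM. HSPA1A gave 0 UMIs in the SplitA cells and 9 in 6 of the SplitB cells.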
